A study of Mus musculus with 6 samples.

Results

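The genes described are the UDP-glucuronosyltransferases (Ugt), cytosolic sulfotransferases (Sult) and soluble glutathione S-transferases (Gst) of mouse liver. They were taken by symbol (Ugt1, Ugt2, Ugt3 and Ugt8, Sult with a number, and the Gst classes alpha, kappa, mu, omega, pi, theta and zeta), pseudogene names were left out, and at least 10 raw counts over the 6 libraries were required. This gave 48 of 56847 gene IDs, of which 26131 had a count: 18 Ugt, 10 Sult and 20 Gst genes. A further 10 matching genes had 0 counts, 7 had 1 to 9 counts and 7 carried pseudogene names. Liver RNA came from mice on CDAHFD (3 libraries) and from mice on a normal diet (3 libraries). CDAHFD stands for a diet that is high in fat, lacks choline and holds defined amino acids, and is a rodent model of steatohepatitis. Strain, sex, age and time on the diet are not in the labels, nor is it said whether the libraries are separate animals, so the p-values reflect the spread among libraries, which may be technical. Poly(A) RNA was sequenced to 21986215 to 25628531 counts per library.

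Phase II enzymes join a polar group to drugs, steroids, bile acids, bilirubin and lipid peroxidation products so that these can leave the cell. Ugt enzymes sit in the endoplasmic reticulum and transfer glucuronic acid from UDP-glucuronate, Sult enzymes are cytosolic and transfer sulfate from PAPS (3'-phosphoadenosine 5'-phosphosulfate), and Gst enzymes add glutathione to reactive electrophiles. Liver is the main site of all 3 reactions, and many of these genes are set by the receptors CAR, PXR and AhR, by the oxidative stress factor NRF2 and by the sex-specific pattern of growth hormone. Each family holds tandem gene clusters of close copies, so reads can be shared between neighbours.

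Most Ugt genes were lower on CDAHFD, the Gst genes moved in both directions, and so did the Sult genes. Of the 48 genes, 45 passed the filter on low counts and were tested by edgeR's quasi-likelihood test with Benjamini-Hochberg adjustment over all 14215 genes. At an adjusted p of 0.05, 7 members were higher and 26 lower on CDAHFD, and 12 did not pass. The background was high, since 52.1% of all genes passed, 28.5% higher and 23.5% lower. Against this, 15.6% of the tested members were higher and 57.8% lower. Their median log2 fold change was -0.46, against 0.01 over all genes tested. All fold changes are log2 of CDAHFD over normal diet, with the standard error (SE) after ±.

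Ugt genes counted 2 higher, 13 lower and 2 not passed of 17, with a median of -0.80. Sult genes counted 1 higher, 3 lower and 4 not passed of 8, with a median of -0.27. Gst genes counted 4 higher, 10 lower and 6 not passed of 20, with a median of -0.19. A change of at least 2-fold was called higher in 6 members and lower in 12 members, against 18.4% and 3.58% of all genes. In 7 members every CDAHFD library lay above, and in 27 every CDAHFD library lay below, all normal diet libraries; for all genes these shares were 32.2% and 28.4%.

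**Figure D1:**
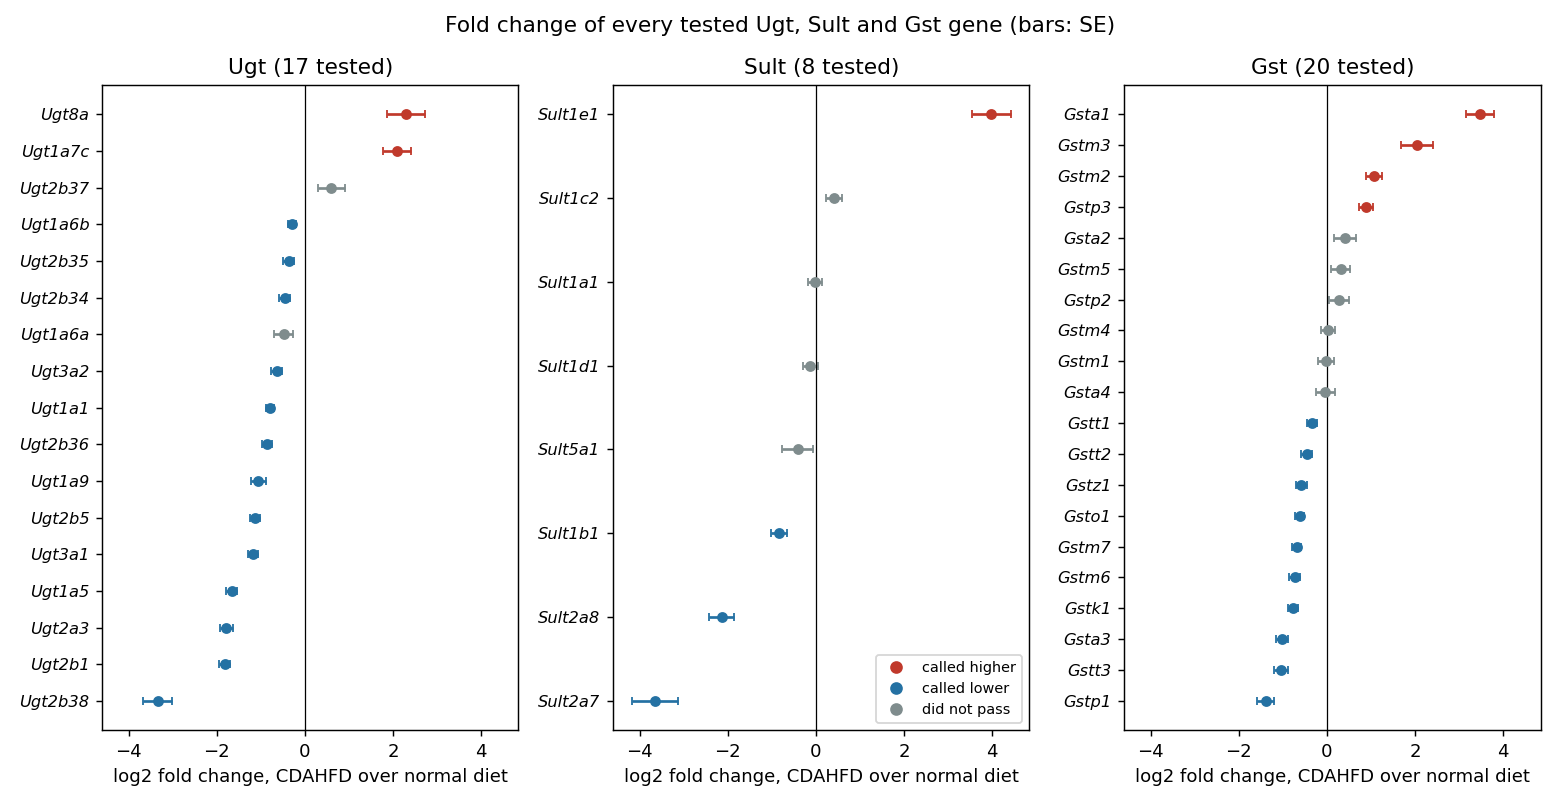
Log2 fold change (CDAHFD over normal diet, x axis) of each of the 45 tested genes, ordered within its family, with bars for the SE and colours for the call (3 libraries per diet). Sult1e1 (3.98) and Gsta1 (3.46) lie farthest to the right, and Sult2a7 (-3.65) and Ugt2b38 (-3.34) farthest to the left.

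The libraries of the 2 diets differed in makeup, which touches every level given here. The summed level of 11 hepatocyte markers was 99240 to 112800 CPM (counts relative to the TMM-scaled library total) on CDAHFD, against 139000 to 157400 CPM on normal diet, with 8 of 11 called lower. Macrophage markers summed to 1799 to 1893 CPM on CDAHFD and 374 to 511 CPM on normal diet (10 of 12 higher), and stellate cell markers to 1423 to 1670 CPM on CDAHFD and 354 to 417 CPM on normal diet (11 of 11 higher). Cholangiocyte markers summed to 185 to 233 CPM on CDAHFD and 42.0 to 52.6 CPM on normal diet (8 of 8 tested higher). Neutrophil markers were higher in 5 of 5, lymphocyte markers in 6 of 10, proliferation markers in 5 of 6 and sinusoidal or vascular endothelial markers in 2 of 10, and no marker was at 0 in all 6 libraries. In bulk tissue, fewer hepatocytes and less RNA per hepatocyte cannot be told apart, and the part of these shifts in the results was not tested.

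The balance of calls depended on how the libraries were scaled. With total counts in place of TMM, the median of all genes moved up by 0.32 and 12 members were higher and 20 lower. With scaling to the hepatocyte markers the median of all genes moved up by 0.45 and 16 were higher and 14 lower. That scaling used the summed counts of the markers and so rested mostly on Alb, which averaged 73248 CPM on CDAHFD and 101386 CPM on normal diet. With TMM, Alb was at -0.47, as was the median of the 11 markers, while Serpina1a was at -0.85 and Apoa1 at -0.38. On log2(TPM + 1), a fit to the deposited length-scaled values, the median of all genes moved up by 0.28 and 11 were higher and 16 lower. Of the calls over all genes, 54.8% were higher with TMM, 84.5% with total counts, 91.1% with hepatocyte markers and 88.0% on log2(TPM + 1). Of the member calls, 21.2%, 37.5%, 53.3% and 40.7% were higher in the same order, a smaller share each time. The member median minus the median of all genes was -0.48 with TMM, total counts and hepatocyte scaling, and -0.37 on log2(TPM + 1). A change of scaling shifts every gene by nearly the same amount, so this difference could hardly vary between the scalings. With total counts, hepatocyte markers and log2(TPM + 1), the Ugt median stayed negative (-0.47, -0.34 and -0.43). In the same order, the Sult median (0.05, 0.16 and 0.11) and the Gst median (0.14, 0.28 and 0.17) turned positive. The median of all genes in these fits was 0.34, 0.47 and 0.29. The Sult and Gst medians thus stayed below that of all genes, as they were with TMM. Under RLE, total count and hepatocyte scaling and both TPM fits, all 7 higher calls and 14 of the 26 lower calls remained. Apart from RLE, which left the median of all genes nearly unchanged, each of these fits moved that median up. Lower calls could thus be lost more readily than higher calls, so this contrast does not show that the higher calls were firmer. The 12 lower calls lost in at least 1 fit were Gstt1, Gstt2, Gstz1, Gsto1, Gstk1, Gstm6, Gstm7, Sult1b1, Ugt2b34, Ugt2b35, Ugt3a2 and Ugt1a6b. These lower calls depended on the scaling. Of these, Gstt1 (0.11), Ugt2b35 (0.09) and Ugt1a6b (0.16) had a positive sign with hepatocyte markers. Of the 12 members that did not pass with TMM, 5 passed as higher with total counts (Gsta2, Gstm5, Gstp2, Sult1c2 and Ugt2b37), and with hepatocyte markers these 5 and Gsta4, Gstm1, Gstm4 and Sult1a1 did.

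**Figure D2:**
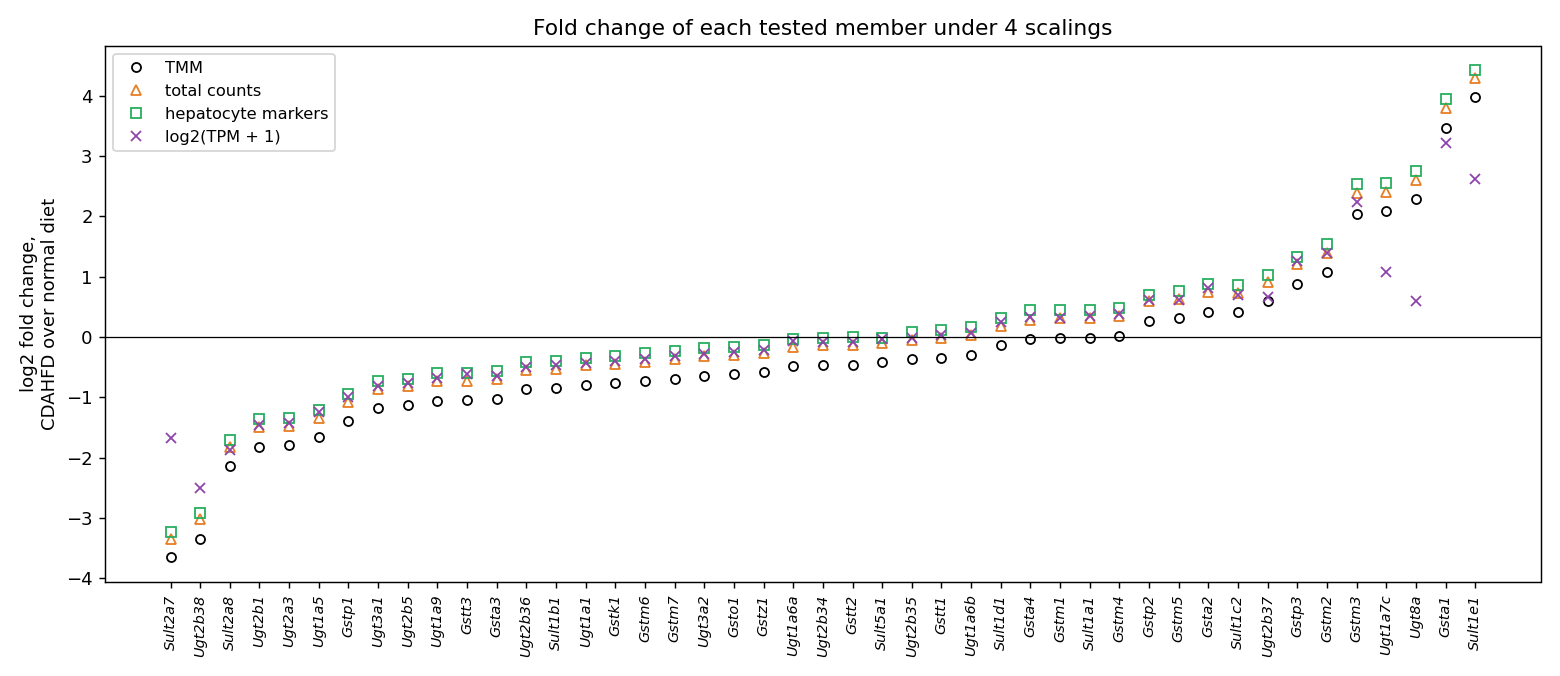
Log2 fold change (CDAHFD over normal diet, y axis) of the 45 tested members, ordered by the TMM value, under TMM, total counts, hepatocyte markers and log2(TPM + 1). Total counts and hepatocyte markers lift every member by a near constant amount (0.32 and 0.45 for the median of all genes), while the pseudocount pulls the low members at both ends toward 0.

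The Ugt2 genes, which glucuronidate steroids, bile acids and many drugs, lie in 1 cluster on chromosome 5, and 7 of the 8 were lower on CDAHFD while 1 did not pass. Ugt2b5 (ENSMUSG00000054630) was the Ugt gene with the highest TPM on both diets, at 752 ± 36 TPM on CDAHFD and 1283 ± 109 TPM on normal diet (SD, n = 3 each). Its level was 457, 475 and 412 CPM on CDAHFD and 944, 1021 and 982 CPM on normal diet, a log2 fold change of -1.13 ± 0.11 (adjusted p = 8.27e-06). All 3 CDAHFD libraries lay below all 3 normal diet libraries.

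Ugt2b1 had 205, 258 and 214 CPM on CDAHFD, against 851, 807 and 724 CPM on normal diet, a log2 fold change of -1.82 ± 0.13 (adjusted p = 7.91e-07). Ugt2a3 had 86.0, 122 and 84.2 CPM on CDAHFD, against 324, 350 and 332 CPM on normal diet, a log2 fold change of -1.79 ± 0.15 (adjusted p = 2.48e-06). In both genes the highest CDAHFD library was below the lowest normal diet library by more than 2-fold. Ugt2b36 had 339, 378 and 306 CPM on CDAHFD, against 642, 657 and 564 CPM on normal diet (-0.86 ± 0.12, adjusted p = 0.000124). Ugt2b34 averaged 411 ± 14.1 CPM on CDAHFD and 567 ± 86.8 CPM on normal diet (SD, n = 3 each; -0.46 ± 0.12, adjusted p = 0.00902), and its value was -0.01 with hepatocyte scaling. Ugt2b35, also lower and chosen after its values were seen, had -0.37 ± 0.12 (adjusted p = 0.0223), and its call was lost without CDAHFD replicate 1 or 2 or normal diet replicate 1.

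Ugt2b38, the Ugt gene with the largest fall, had 31, 53 and 21 counts on CDAHFD, against 304, 171 and 349 on normal diet. These are 1.26, 1.90 and 0.818 CPM on CDAHFD and 14.9, 8.38 and 17.4 CPM on normal diet, a log2 fold change of -3.34 ± 0.32 (adjusted p = 8.04e-06) or 10.2-fold lower. Ugt2b37, the member of the cluster that did not pass, chosen after its values were seen, had 68, 81 and 35 counts on CDAHFD and 26, 33 and 35 on normal diet (0.60 ± 0.31, adjusted p = 0.129). It passed as higher without CDAHFD replicate 3 (0.84), with total counts (0.91, adjusted p = 0.0231), with hepatocyte markers (1.03, adjusted p = 0.00507), on log2(TPM + 1) (0.66, adjusted p = 0.023) and on log2(TPM + 0.1) (0.86, adjusted p = 0.035).

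The promoters of Ugt2b5, Ugt2b37 and Ugt2b38 are shown because these near copies had such unlike values. The windows run from 250 bases before to 50 bases after the gene start (RefSeq, GRCm38.p6, minus strand, 5' to 3', chr5:87140291-87140590 for Ugt2b5, chr5:87254739-87255038 for Ugt2b37 and chr5:87424154-87424453 for Ugt2b38), and capitals mark bases not identical to both of the others in pairwise alignment, window ends with no partner included:
Ugt2b38: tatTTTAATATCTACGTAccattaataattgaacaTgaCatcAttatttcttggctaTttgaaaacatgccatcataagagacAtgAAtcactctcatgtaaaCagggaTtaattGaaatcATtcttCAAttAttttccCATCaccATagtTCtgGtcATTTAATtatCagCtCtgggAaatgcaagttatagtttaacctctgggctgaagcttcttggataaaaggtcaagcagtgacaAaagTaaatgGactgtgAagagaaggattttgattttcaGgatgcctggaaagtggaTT
Ugt2b37: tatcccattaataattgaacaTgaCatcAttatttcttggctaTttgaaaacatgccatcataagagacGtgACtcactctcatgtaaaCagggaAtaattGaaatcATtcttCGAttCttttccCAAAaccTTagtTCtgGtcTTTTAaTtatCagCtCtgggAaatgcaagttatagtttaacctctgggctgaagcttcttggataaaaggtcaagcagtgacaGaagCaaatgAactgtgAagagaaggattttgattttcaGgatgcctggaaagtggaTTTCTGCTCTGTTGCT
Ugt2b5: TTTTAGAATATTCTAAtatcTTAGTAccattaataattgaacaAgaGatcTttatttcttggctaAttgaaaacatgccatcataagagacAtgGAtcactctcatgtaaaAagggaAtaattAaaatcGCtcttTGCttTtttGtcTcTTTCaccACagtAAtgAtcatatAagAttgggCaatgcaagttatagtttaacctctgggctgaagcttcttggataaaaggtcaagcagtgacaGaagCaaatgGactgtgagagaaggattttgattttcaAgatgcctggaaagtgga
Ugt2b37 and Ugt2b38 were identical at 274 of 300 bases, Ugt2b38 and Ugt2b5 at 261 and Ugt2b37 and Ugt2b5 at 248, while the median over the 309 pairs within a family was 58.7%. The pair closest in promoter sequence had fold changes of -3.34 and 0.60, of which only the first passed with TMM. In their transcripts (GENCODE M21), 24.2% of the 100-base windows of Ugt2b38 also occur in Ugt2b5, and 1.06% of those of Ugt2b37 also occur in Ugt2b38, so part of the Ugt2b38 reads cannot be placed by sequence alone.

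The Ugt1a genes share 1 locus on chromosome 1, where first exons, which set the substrate, are joined to exons common to all. The values therefore rest on how reads in the shared exons were assigned, a rule that the labels and file headers do not state. The join is shown for the 3 named members that fell, with the 30 bases before it in lower case and the first 30 bases shared by all in capitals (GENCODE M21 transcripts, sense strand):
Ugt1a1: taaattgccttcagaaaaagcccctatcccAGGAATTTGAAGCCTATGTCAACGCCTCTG
Ugt1a5: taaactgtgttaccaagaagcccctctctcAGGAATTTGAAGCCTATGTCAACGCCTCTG
Ugt1a9: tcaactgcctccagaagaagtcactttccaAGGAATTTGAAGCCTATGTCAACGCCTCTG
From the first capital on, 1313 of the 2224 bases of the Ugt1a1 transcript are shared with the other 8 Ugt1a genes. The Ugt1a6a transcript shared 100% of its 100-base windows with other genes, and the other Ugt1a members 57.2% to 71.5%. Windows and joins were taken from the longest transcript model of each gene only. The Ugt1a7c model (3302 bases) meets the shared exons at base 985, as that of Ugt1a6b does. Whether it holds a first exon of Ugt1a7c alone was not checked. In these models Ugt1a6a, Ugt1a6b and Ugt1a7c share sequence beyond the common exons. All of the Ugt1a6a windows occur in Ugt1a7c, 68.6% of the Ugt1a7c windows occur in Ugt1a6a, and the 30 bases before the join are the same in the Ugt1a7c and Ugt1a6b models:
Ugt1a7c: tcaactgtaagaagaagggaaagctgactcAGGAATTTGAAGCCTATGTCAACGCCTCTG
Ugt1a6b: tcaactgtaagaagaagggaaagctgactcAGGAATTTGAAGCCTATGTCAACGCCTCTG

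Ugt1a1, the enzyme that glucuronidates bilirubin, had 56.5, 53.1 and 52.5 CPM on CDAHFD, against 93.8, 96.5 and 91.5 CPM on normal diet, a log2 fold change of -0.80 ± 0.10 (adjusted p = 4.28e-05). Ugt1a5 had 10.7, 10.4 and 9.70 CPM on CDAHFD, against 32.2, 36.1 and 29.3 CPM on normal diet (-1.66 ± 0.12, adjusted p = 1.15e-06). Ugt1a9, which glucuronidates phenols, had 16.6, 10.3 and 13.7 CPM on CDAHFD, against 29.8, 30.8 and 23.8 CPM on normal diet (-1.06 ± 0.17, adjusted p = 0.0004). Libraries of the diets did not overlap in any of these genes, and within each diet Ugt1a1 varied least.

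The row for Ugt1a7c was higher within the same locus, but its reads may not be separable from those of the Ugt1a6 genes. It had 61, 57 and 74 counts on CDAHFD, against 13, 15 and 7 on normal diet, which is 2.47, 2.04 and 2.88 CPM on CDAHFD and 0.638, 0.735 and 0.350 CPM on normal diet (2.09 ± 0.32, adjusted p = 0.000252). The row thus held few counts on both diets. The planar phenol enzymes Ugt1a6b and Ugt1a6a, both chosen after their values were seen, had -0.29 ± 0.09 (adjusted p = 0.023) and -0.48 ± 0.22 (adjusted p = 0.0847). The first lost its call without CDAHFD replicate 1 or normal diet replicate 1, and the second passed without normal diet replicate 3. Ugt1a10, not tested for low counts, had 0, 2 and 2 counts on CDAHFD and 10, 20 and 11 on normal diet.

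Both Ugt3a genes, on chromosome 15, were lower on CDAHFD; human UGT3A1 uses UDP-N-acetylglucosamine instead of UDP-glucuronate. Ugt3a1 had 32.0, 38.2 and 29.7 CPM on CDAHFD, against 74.8, 78.4 and 73.3 CPM on normal diet (-1.18 ± 0.11, adjusted p = 8.05e-06). The more abundant Ugt3a2 averaged 257 ± 29.4 CPM on CDAHFD and 402 ± 32.5 CPM on normal diet (SD, n = 3 each; -0.64 ± 0.12, adjusted p = 0.000943). Ugt8a, chosen after its values were seen, makes galactosylceramide in myelin-forming cells and is no drug enzyme. It had 24, 21 and 32 counts on CDAHFD, against 3, 6 and 3 on normal diet (2.29 ± 0.43, adjusted p = 0.00103) and was near the limit of detection on normal diet.

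**Figure D3:**
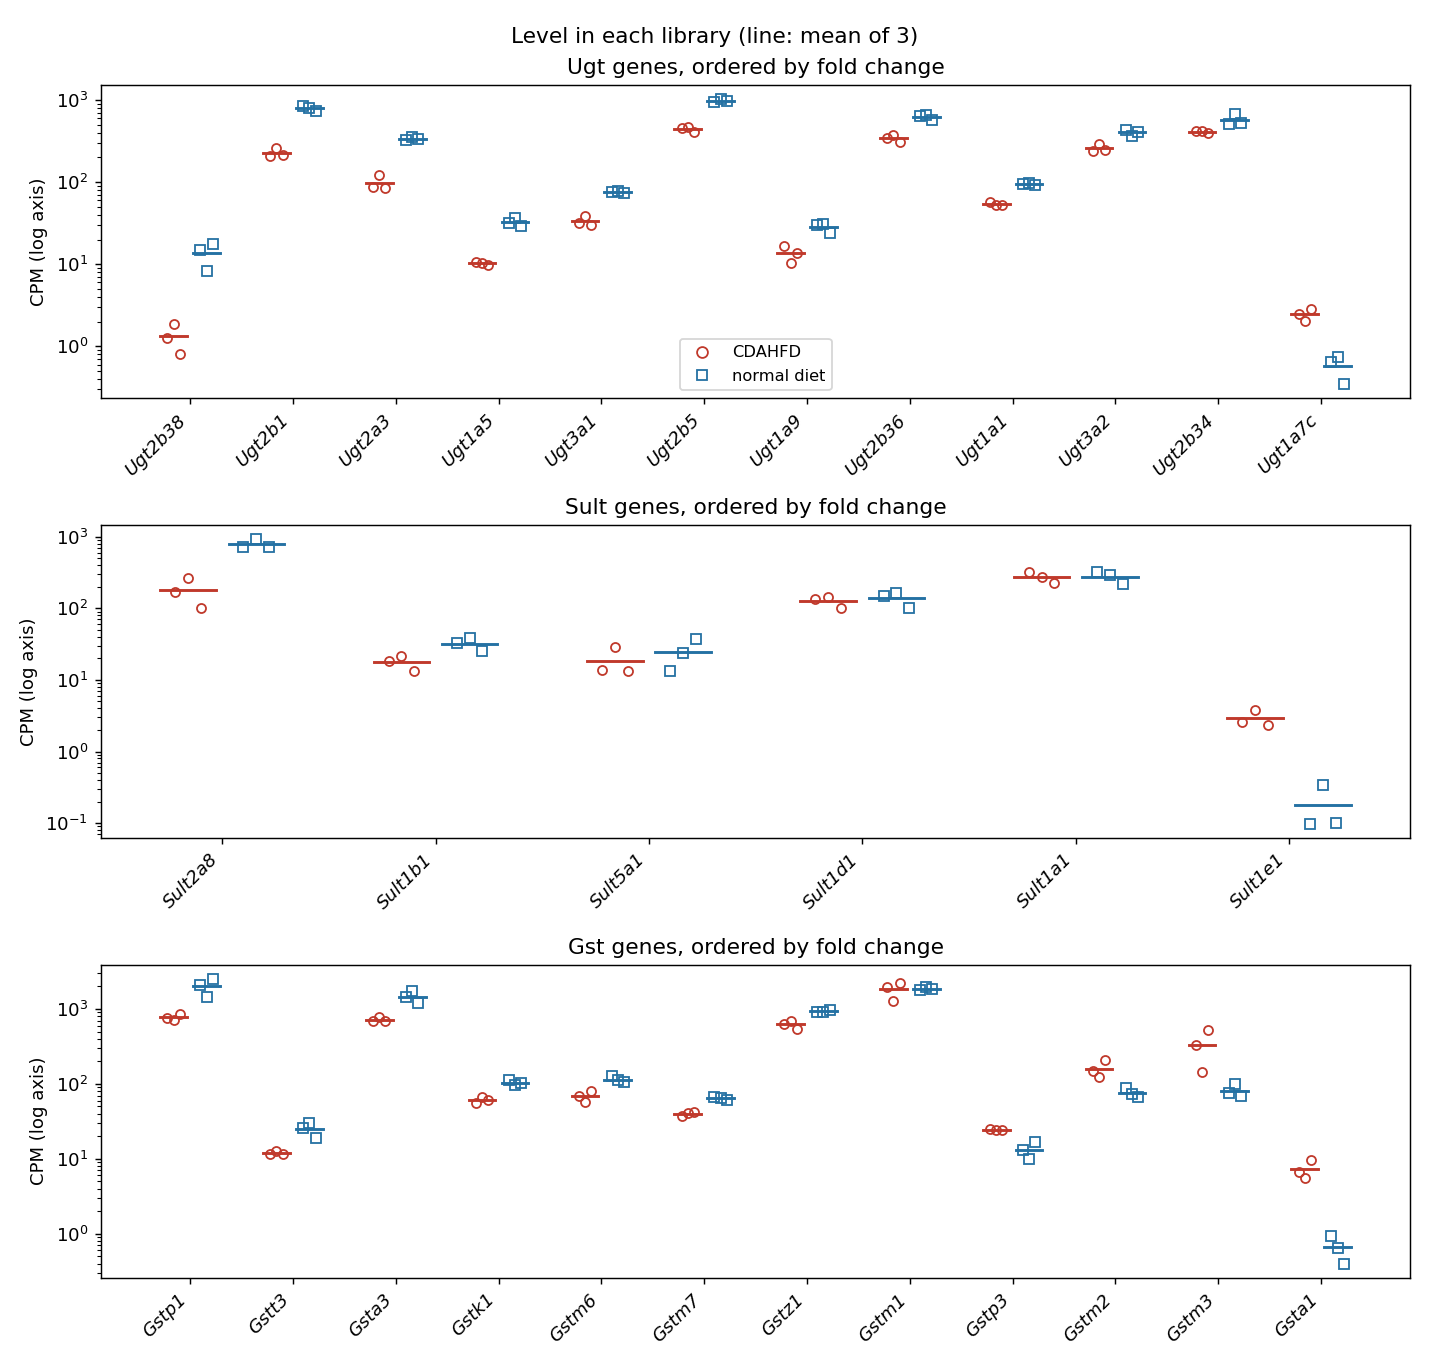
CPM (log axis) of the named genes of each family in every library, CDAHFD as circles and normal diet as squares, with a line at the mean of 3. The diets are clearly apart for genes such as Ugt2b1 and Sult2a8 and lie on each other for Gstm1, Sult1a1 and Sult1d1.

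Among the sulfotransferases, the estrogen sulfotransferase Sult1e1 rose, from a level near 0 counts on normal diet, and the bile acid sulfotransferase Sult2a8 fell. Sult1e1 (ENSMUSG00000029272) had 64, 107 and 61 counts on CDAHFD, against 2, 7 and 2 on normal diet, or 2.59, 3.83 and 2.38 CPM on CDAHFD and 0.0982, 0.343 and 0.10 CPM on normal diet. The log2 fold change was 3.98 ± 0.43 (adjusted p = 2.08e-05), and 4.81 without normal diet replicate 2, the highest of its group. The size of the rise therefore rests on a few counts, while all CDAHFD libraries lay above all normal diet libraries.

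Sult2a8 (ENSMUSG00000030378) had 170, 268 and 100 CPM on CDAHFD, against 727, 926 and 712 CPM on normal diet, a log2 fold change of -2.14 ± 0.28 (adjusted p = 8.33e-05) or 4.40-fold lower. On CDAHFD it spread widely, with replicate 2 highest and replicate 3 lowest, but no library came near the normal diet range. Its neighbour on chromosome 7, Sult2a7, chosen after its values were seen, was rare, at 3, 6 and 2 counts on CDAHFD and 22, 60 and 29 on normal diet (-3.65 ± 0.52, adjusted p = 0.000155). Sult2b1, which sulfates cholesterol, was not tested for low counts; it had 6, 1 and 8 counts on CDAHFD and 0 in each normal diet library.

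Of the 4 other tested Sult1 genes, 1 fell and 3 did not pass. Sult1a1, the main phenol sulfotransferase, had 322, 272 and 223 CPM on CDAHFD, against 319, 289 and 218 CPM on normal diet (-0.02 ± 0.16, adjusted p = 0.943). The diets overlapped fully, although the sign turned positive with total counts (0.31), hepatocyte markers (0.44, adjusted p = 0.0151) and log2(TPM + 1) (0.35). Sult1d1, which sulfates catecholamines, averaged 127 ± 22.7 CPM on CDAHFD and 138 ± 32.3 CPM on normal diet (SD, n = 3 each; -0.13 ± 0.18, adjusted p = 0.581), and its sign also turned positive, at 0.32, with hepatocyte markers. Sult1b1, active on thyroid hormone, had 18.6, 21.7 and 13.5 CPM on CDAHFD, against 32.7, 38.4 and 25.5 CPM on normal diet (-0.84 ± 0.19, adjusted p = 0.00277). Sult5a1 had 13.6, 28.8 and 13.2 CPM on CDAHFD, against 13.3, 23.6 and 37.2 CPM on normal diet (-0.41 ± 0.35, adjusted p = 0.349), and passed as lower, at -0.92, without CDAHFD replicate 2. Sult1b1, Sult1d1 and Sult1e1 lie next to each other on chromosome 5, and of these 3 neighbours 1 was higher, 1 lower and 1 did not pass.

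Among the alpha-class Gst genes, which handle lipid peroxidation products and aflatoxin, 1 of 4 rose and 1 fell. Gsta1 (ENSMUSG00000074183) had 166, 155 and 249 counts on CDAHFD, against 19, 13 and 8 on normal diet, or 6.72, 5.54 and 9.70 CPM on CDAHFD and 0.933, 0.637 and 0.400 CPM on normal diet. The log2 fold change was 3.46 ± 0.32 (adjusted p = 5.33e-06), the largest rise among the Gst genes. Gsta3, which conjugates aflatoxin epoxide in mouse liver, was far more abundant, with 683, 787 and 690 CPM on CDAHFD and 1427, 1723 and 1219 CPM on normal diet (-1.02 ± 0.14, adjusted p = 0.000127). Gsta2 and Gsta4 did not pass, with values of 0.41 ± 0.26 (adjusted p = 0.199) and -0.04 ± 0.21 (adjusted p = 0.9). Gsta2 passed as higher with total counts (0.74, adjusted p = 0.025) and with hepatocyte markers (0.88, adjusted p = 0.000524). With no filter its value stayed at 0.41 and it passed (adjusted p = 0.00576), but that fit gave far smaller adjusted p to many members. Gstm3, for example, went from 0.000591 at 2.04 to 9.01e-52 at 2.05. Gsta4 turned positive with total counts (0.29) and log2(TPM + 1) (0.33), and passed as higher with hepatocyte markers (0.44, adjusted p = 0.0461). Gsta4, known for 4-hydroxynonenal, overlapped between the diets.

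Gsta1 and Gsta2 are a close pair on chromosome 9, and their promoters are shown for the contrast between 3.46 and 0.41 (RefSeq, GRCm38.p6, 5' to 3', chr9:78230419-78230718 plus strand for Gsta1 and chr9:78347096-78347395 minus strand for Gsta2, capitals marking bases not identical in the alignment):
Gsta1: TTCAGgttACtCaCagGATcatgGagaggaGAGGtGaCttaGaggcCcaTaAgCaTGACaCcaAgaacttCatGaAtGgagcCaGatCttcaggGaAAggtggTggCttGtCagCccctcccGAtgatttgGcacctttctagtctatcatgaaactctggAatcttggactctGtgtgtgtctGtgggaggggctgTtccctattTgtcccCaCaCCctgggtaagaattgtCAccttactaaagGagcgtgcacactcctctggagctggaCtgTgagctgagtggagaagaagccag
Gsta2: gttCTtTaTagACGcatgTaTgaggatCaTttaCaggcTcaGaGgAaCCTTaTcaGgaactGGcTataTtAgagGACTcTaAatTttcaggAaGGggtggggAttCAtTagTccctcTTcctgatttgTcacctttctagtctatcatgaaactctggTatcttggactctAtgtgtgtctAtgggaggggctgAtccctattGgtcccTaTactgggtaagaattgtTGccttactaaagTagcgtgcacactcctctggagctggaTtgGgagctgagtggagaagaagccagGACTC
They were identical at 238 of 300 bases. In the transcripts, 81.8% of the 100-base windows of Gsta1 and 35.0% of those of Gsta2 occur in another gene as well. The gene sharing most was outside the members: Gm3776 for Gsta1 (71.3% of windows) and Gm10639 for Gsta2 (24.4%). The reads of Gsta1 in particular may thus be divided among copies.

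The 7 mu-class genes lie side by side on chromosome 3 and split into 2 higher, 2 lower and 3 not passed. Gstm1, the mu-class gene with the highest TPM, had 1976, 1294 and 2255 CPM on CDAHFD, against 1774, 1985 and 1830 CPM on normal diet (-0.02 ± 0.18, adjusted p = 0.948). The CDAHFD libraries surrounded the normal diet range on both sides, and the sign turned positive with total counts (0.31), hepatocyte markers (0.45, adjusted p = 0.0248) and log2(TPM + 1) (0.31). Gstm3 had 334, 143 and 523 CPM on CDAHFD, against 74.7, 100 and 68.0 CPM on normal diet (2.04 ± 0.35, adjusted p = 0.000591). Gstm2 had 150, 123 and 206 CPM on CDAHFD, against 88.0, 73.4 and 67.5 CPM on normal diet (1.07 ± 0.18, adjusted p = 0.000413). Both were highest in CDAHFD replicate 3 and lowest in CDAHFD replicate 2, and for Gstm3 replicate 2 lay much closer to the normal diet libraries than the others did. Gstm3 was at 1.53 without CDAHFD replicate 3 and at 2.37 without CDAHFD replicate 2, with the call kept.

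Gstm6 and Gstm7, neighbours of Gstm3, were lower. Gstm6 averaged 68.6 ± 11.1 CPM on CDAHFD and 114 ± 10.6 CPM on normal diet (SD, n = 3 each; -0.73 ± 0.13, adjusted p = 0.000744). Gstm7 averaged 40.1 ± 2.32 CPM on CDAHFD and 64.6 ± 2.93 CPM on normal diet (SD, n = 3 each; -0.69 ± 0.10, adjusted p = 0.000164). Both calls were lost with hepatocyte scaling, at -0.26 and -0.23. Gstm4 and Gstm5 did not pass with TMM.

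Gstp1, the pi-class enzyme that is more abundant in male than in female mouse liver, ranked 2 by TPM among the Gst genes on CDAHFD and 1 on normal diet. Gstp1 (ENSMUSG00000060803) had 754, 705 and 864 CPM on CDAHFD, against 2122, 1458 and 2526 CPM on normal diet, a log2 fold change of -1.39 ± 0.18 (adjusted p = 8.33e-05) or 2.63-fold lower. The highest CDAHFD library was well below the lowest normal diet library. Gstp3, from the same cluster on chromosome 19, was higher, with 24.8, 24.0 and 24.5 CPM on CDAHFD and 13.3, 9.90 and 16.6 CPM on normal diet (0.88 ± 0.16, adjusted p = 0.000939). Gstp2 did not pass (0.27 ± 0.23, adjusted p = 0.347), and 52.8% of the 100-base windows of Gstp1 also occur in Gstp2, which had under 300 counts in every library.

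All 6 theta, zeta, omega and kappa genes were called lower with TMM, and 5 of the 6 calls were lost with hepatocyte scaling. Gstt3 had 11.7, 12.8 and 11.7 CPM on CDAHFD, against 25.8, 30.1 and 19.04 CPM on normal diet (-1.05 ± 0.16, adjusted p = 0.000256). Gstt1 and Gstt2, chosen after their values were seen, had -0.34 ± 0.11 (adjusted p = 0.0213) and -0.46 ± 0.13 (adjusted p = 0.0116), and each lost its call in at least 1 fit that left out a library. Gstz1, the maleylacetoacetate isomerase of tyrosine breakdown, averaged 624 ± 75.5 CPM on CDAHFD and 933 ± 39.7 CPM on normal diet (SD, n = 3 each; -0.58 ± 0.12, adjusted p = 0.00191), and its value was -0.14 with hepatocyte scaling. Gstk1, found in mitochondria and peroxisomes, averaged 61.1 ± 6.19 CPM on CDAHFD and 104 ± 7.68 CPM on normal diet (SD, n = 3 each; -0.76 ± 0.11, adjusted p = 0.000185). Gsto1, chosen after its values were seen, belongs to the omega class, which reduces dehydroascorbate, and had -0.62 ± 0.11 (adjusted p = 0.000527).

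The make-up of each family was read from TPM, which divides by gene length and so allows levels of genes to be compared. TPM in these files used 1 fixed length per gene, so for Ugt1a genes it also rests on the length given to the shared exons. TPM is a share of each library without TMM scaling, and on log2(TPM + 1) the median of all genes moved up by 0.28. Sums compared between the diets are therefore on another scale than the fold changes with TMM. The Ugt sum was 2576 ± 114 TPM on CDAHFD and 4218 ± 354 TPM on normal diet (SD, n = 3 each). The Sult sum was 947 ± 175 TPM on CDAHFD and 1219 ± 221 TPM on normal diet, and the ranges of the diets overlapped. The Gst sum was 8888 ± 1969 TPM on CDAHFD and 9075 ± 252 TPM on normal diet, with CDAHFD replicate 2 lowest at 6800 TPM and replicate 3 highest at 10710 TPM.

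Within the families the order of genes shifted. Gstp1 made up 17.9% ± 2.0 of the Gst sum on CDAHFD and 34.8% ± 7.3 on normal diet, while Gstm1 made up 43.6% ± 4.0 on CDAHFD and 33.9% ± 3.8 on normal diet (SD, n = 3 each). Gstm3 took 8.5% ± 3.5 on CDAHFD and 1.7% ± 0.4 on normal diet, and ranked 3 among the Gst genes on CDAHFD and 7 on normal diet. Sult2a8 made up 17.4% ± 5.6 of the Sult sum on CDAHFD and 48.0% ± 4.2 on normal diet, and Sult1a1 59.8% ± 6.2 on CDAHFD and 36.4% ± 4.2 on normal diet. Ugt2b5 kept the first rank among Ugt genes, with 29.2% ± 1.0 on CDAHFD and 30.4% ± 1.3 on normal diet, and Ugt2b1 had 10.6% ± 0.7 on CDAHFD and 17.8% ± 1.1 on normal diet. These shares are descriptions without a test, and a share can rise because other members fell.

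**Figure D4:**
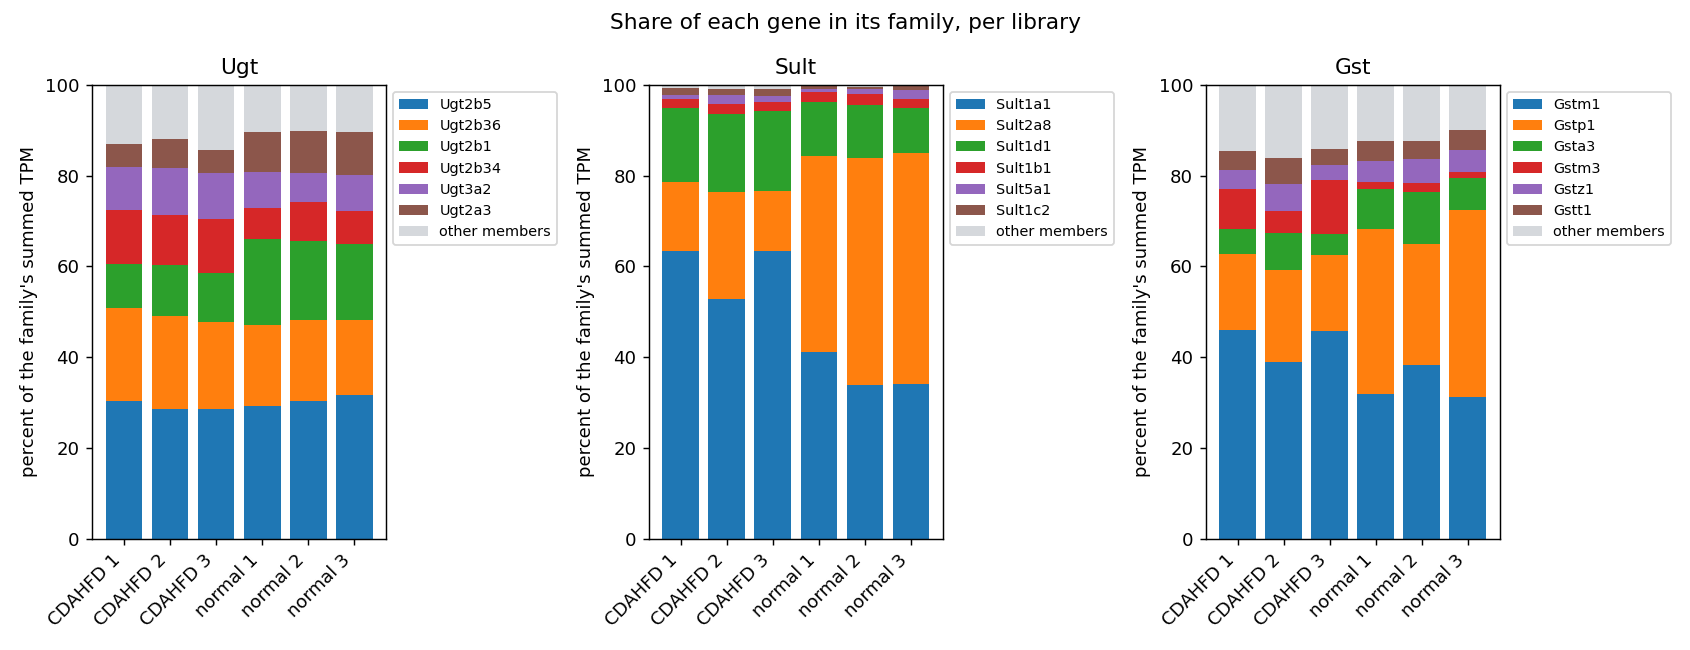
Percent of the summed TPM of the Ugt, Sult and Gst families taken by the 6 genes with the highest mean share and by the other members, in each of the 3 CDAHFD and 3 normal diet libraries. Sult2a8 and Gstp1 hold smaller bands in each CDAHFD library than in each normal diet library, and Ugt2b5 holds about the same.

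Libraries of 1 diet kept a similar order across the alpha and mu genes. Of these 11 genes, 9 were highest in CDAHFD replicate 3 and 8 were lowest in CDAHFD replicate 2 among the CDAHFD libraries, and 9 were lowest in replicate 3 among the normal diet libraries. Of the 7 higher members, 6 were lowest in CDAHFD replicate 2, and of the 26 lower members 17 were highest in it. Such counts were not made over all genes, so this order cannot be called particular to the members. The median coefficient of variation over members was 14.1% on CDAHFD and 18.2% on normal diet for Gst genes. It was 24.9% on CDAHFD and 21.7% on normal diet for Sult genes, and 13.2% on CDAHFD and 8.11% on normal diet for Ugt genes.

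Genes that supply the cofactors did not move as one. The counts below stand beside shares of 28.5% higher and 23.5% lower over all genes tested. In the list for UDP-glucuronate, 1 of 6 was higher and 1 lower, and Ugdh, the enzyme that makes it, had -0.09 ± 0.13 (adjusted p = 0.604). The higher one was Gusb, the lysosomal enzyme that removes glucuronic acid, at 1.00 ± 0.10 (adjusted p = 7.64e-06). In the list for PAPS 5 of 8 were lower and 3 did not pass; lower were, among others, the PAPS synthase Papss2 (-0.55 ± 0.16, adjusted p = 0.0134) and the sulfite oxidase Suox (-0.86 ± 0.12, adjusted p = 0.00012). In the list for glutathione 7 of 17 were higher and 5 lower. Gclc, the rate-limiting synthesis enzyme, had -0.02 ± 0.17 (adjusted p = 0.934), Cbs, which feeds cysteine supply, had -1.03 ± 0.13 (adjusted p = 8.27e-05), and the cystine carrier Slc7a11 had 103, 126 and 108 counts on CDAHFD and 1, 1 and 0 on normal diet.

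Of 15 regulators, 10 were lower and 1, Esr1, was higher at 0.90 ± 0.15 (adjusted p = 0.000419). Over all genes tested 28.5% were higher and 23.5% lower, and each count of this paragraph is to be read beside these shares. Nr1i3 (CAR) had -0.62 ± 0.16 (adjusted p = 0.00666), Nr1i2 (PXR) -0.30 ± 0.10 (adjusted p = 0.027) and Ahr -0.71 ± 0.12 (adjusted p = 0.000448). Of 13 genes known as targets of CAR or PXR, 8 were lower and 2 higher. Cyp2b10 was at -3.38 ± 0.62 (adjusted p = 0.000827), with 4, 10 and 1 counts on CDAHFD and 49, 60 and 15 on normal diet. Cyp3a11 was at -2.05 ± 0.20 (adjusted p = 8.27e-06). Cyp2c29 was at -5.22 ± 0.20 (adjusted p = 1.63e-08) and Cyp2b9 at 3.71 ± 0.61 (adjusted p = 0.000388). Of 19 known NRF2 targets outside the Gst families, 11 were higher and 3 lower. Hmox1 was at 2.07 ± 0.11 (adjusted p = 1.15e-07) and Nqo1 at 1.50 ± 0.27 (adjusted p = 0.000749). Me1 went the other way, at -2.64 ± 0.22 (adjusted p = 2.51e-06). Of 6 AhR targets 3 were higher and 1 lower. Cyp1a1 did not pass (0.05 ± 0.26, adjusted p = 0.88), and Cyp1a2 was the lower one, at -0.54 ± 0.11 (adjusted p = 0.00149). The transporters that carry conjugates and bile acids counted 5 higher and 9 lower of 15, with Abcc2, which exports conjugates into bile, at -0.46 ± 0.12 (adjusted p = 0.00757) and Abcc1 at 2.62 ± 0.19 (adjusted p = 9.48e-07). Of 21 other conjugating genes 12 were lower and 2 higher, Mgst3 at 1.18 ± 0.15 (adjusted p = 5.55e-05; chosen after its values were seen) and Hpgds, a sigma-class Gst that makes prostaglandin D2, at 3.53 ± 0.32 (adjusted p = 4.40e-06).

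Genes known to differ between the sexes in mouse liver were also counted, because Gstp1 is one of them. For these counts too, the shares over all genes tested were 28.5% higher and 23.5% lower. Of 12 male-biased genes 11 were lower and 1 did not pass, and of 5 tested female-biased genes 3 were higher and 2 did not pass. The lists overlap with those above: the female-biased Cyp2b9 was also counted among the CAR or PXR targets, and the male-biased Slco1a1 among the transporters. The labels give no sex. Y-linked genes were counted in all 6 libraries and Xist had at most 6 counts in a library, as in male tissue. All 4 tested Y-linked genes were called lower on CDAHFD, from -0.87 ± 0.15 (Ddx3y, adjusted p = 0.000631) to -0.43 ± 0.12 (Kdm5d, adjusted p = 0.0101). Of genes with a known place in the lobule, 6 of 13 pericentral genes were lower and 5 higher, and 8 of 12 periportal genes were lower and 3 higher. The part of these shifts in the results was not tested.

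Short sequence motifs in the promoters were counted as a description, on both strands, in the 43 members with a RefSeq window. TGACNNNGC, the core of the antioxidant response element, was in 3 members (6.98%), against 13.99% of all 27025 genes of the table, and in none of the 7 higher members. GCGTG, the core of the AhR element, was in 11 members (25.6%), against 35.2% of all genes, and in 3 of the 7 higher members. TTCNNNGAA, a STAT5-type motif, was in 3 members (6.98%), against 9.55% of all genes. A match is not a binding site, and no match says only that these letters are not in this window.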

How the data were processed

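The authors deposited raw read counts per Ensembl gene as whole numbers, and TPM that sum to 1000000 in each library. Per the submitters' processing notes, STAR 2.7.11a and the build GRCm39 were used. How reads were counted, and with which annotation and strand setting, is not given in the sources used here. Per the labels' protocols, 1 stranded, ligation-based mRNA kit was used. Columns were matched to samples by title, and 0 per-sample columns were left unused.

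Symbols from the gene name table were found for 51911 of 56847 gene IDs. Genes were kept with filterByExpr (minimum count 10), scaled by TMM and fitted with edgeR 4.0.16 (R 4.3.3; quasi-likelihood, diet as the term, Benjamini-Hochberg over 14215 genes, threshold 0.05). SE was taken as the absolute log2 fold change over the square root of F. CPM use TMM-scaled totals. The pipeline was also run on simulated data in which few genes changed, as many up as down. That run cannot judge the scaling in data where 52.1% of genes passed. Alternatives were DESeq2 1.42.0, limma 3.58.1 (voom, and on log2(TPM + 1) and log2(TPM + 0.1)), 3 other scalings (RLE, total counts, hepatocyte markers), 2 other filters (none, and 1 CPM in 3 libraries), a replicate block, and leaving out each library. Within a diet no 2 libraries agreed within sampling noise.

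The members, lists and tests were chosen with earlier results of these data known. Named members are, per family, the 10 largest changes (or fewer) among called members that average 1 CPM or more, and the 5 highest by mean TPM. From each pathway list come at most 4 called genes by size of change, with the same floor, and its first 2 genes. Others are said to be chosen after their values were seen, or follow a count of 5 or fewer. Promoters come from RefSeq (GRCm38.p6) and were aligned with Biopython 1.88; transcripts come from GENCODE M21. Both are of an older build than the files and served for sequence and gene order only.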

Additional observations from a re-analysis of the deposited data

How the results depend on the processing

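Members called higher and lower numbered 7 and 26 with TMM, RLE, DESeq2, limma-voom and the replicate block. They numbered 9 and 27 with no filter, where many members had far smaller adjusted p at nearly the same fold change. With 1 CPM in 3 libraries they numbered 6 and 25. With total counts they were 12 and 20, with hepatocyte scaling 16 and 14, on log2(TPM + 1) 11 and 16, and on log2(TPM + 0.1) 9 and 15. Over all genes, 4057 were higher and 3347 lower with TMM, 6258 and 1147 with total counts, 7167 and 700 with hepatocyte scaling, 6394 and 876 on log2(TPM + 1) and 6214 and 759 on log2(TPM + 0.1). The member median of -0.46 was -0.14, -0.01, -0.08 and -0.09 in these 4 fits, and -0.62 to -0.45 when 1 library was left out, where 7 to 9 members were higher and 23 to 27 lower. The shift of the median of all genes in these fits accompanies these moves.

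Signs turned for some members that did not pass with TMM. Gstm1 (-0.02), Sult1a1 (-0.02) and Sult1d1 (-0.13) were at 0.31, 0.31 and 0.19 with total counts, at 0.45, 0.44 and 0.32 with hepatocyte scaling, at 0.31, 0.35 and 0.25 on log2(TPM + 1) and at 0.31, 0.35 and 0.25 on log2(TPM + 0.1). Gstm1 and Sult1a1 were both at 0.01 with 1 CPM in 3 libraries. When 1 library was left out, Gstm1 ran from -0.22 to 0.15, Sult1a1 from -0.19 to 0.09, Sult1d1 from -0.32 to 0.00, Gsta4 from -0.26 to 0.12 and Gstm4 from -0.14 to 0.17. With total counts, hepatocyte scaling, log2(TPM + 1) and log2(TPM + 0.1), the median of all genes moved up by 0.32, 0.45, 0.28 and 0.36. The sign changes in these 4 fits thus came with a lift of all genes by a similar amount. The cause of the moves when 1 library was left out was not tested. Same-numbered libraries of the diets had correlations of -0.05, 0.07 and 0.12 in their deviations from the group means, so the numbers do not pair them, and the replicate block changed no call of a member. Depth limits the size of change of Sult1e1, Sult2a7, Ugt8a, Ugt1a7c and Gsta1, which had few counts on 1 diet.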
